A study of Arabidopsis thaliana with 12 samples.

Results

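NAC transcription factors are described here over 4 groups of Arabidopsis thaliana seedlings: wild type (Col-0) and a mutant line, camta6-5, each kept for 16 hours on medium with 0 or with 200 mM NaCl. The members are the rows of the raw count table whose gene name holds the letters NAC followed by a digit, which gave 83 of 33602 genes, 1 gene named in the rule being left out. Of these rows, 81 are NAC factors. The other 2, GlcNAc1pUT1 and GlcNAc1pUT2, match by their letters alone: they make the sugar nucleotide UDP-GlcNAc, are not transcription factors, and stand apart from every count below. NAC factors whose names in the table lack those letters are not among the members. Each group held 3 libraries of total RNA from pre-germinated seedlings grown from cold-stratified seeds. CAMTA6 belongs to a family of transcription activators that bind calmodulin, the calcium sensor. The line camta6-5 carries an allele of its gene whose lesion the labels do not describe. The labels name 1 mutant line and do not say whether the 3 libraries of a group came from separate cultures, so the p-values measure the spread between these libraries, which may be technical.

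NAC factors are a plant family named after NAM, ATAF and CUC. They share a DNA-binding domain near the start of the protein, and their remaining parts differ widely. Some members carry a membrane anchor near their end, stay in the endoplasmic reticulum or another membrane, and reach the nucleus after they are cut free. The family is known for roles in salt, drought and abscisic acid (ABA) responses, leaf senescence, secondary wall formation, organ boundaries, and signals from stressed mitochondria or endoplasmic reticulum. Members are named here by their ANAC numbers, with the gene identifier at the first full description.

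Library totals ran from 29473212 to 35450685 counts. Levels are CPM, counts brought to one library size after TMM, a scaling that rests on the bulk of the genes. CAMTA6 itself was at 14.7, 18.8 and 20.0 CPM in the wild-type controls and 33.2, 31.8 and 27.7 with NaCl, and at 35.4, 33.2 and 35.6 CPM in the camta6-5 controls and 38.2, 41.1 and 52.3 with NaCl. Its level was thus above that of wild type in the libraries labelled camta6-5 under both treatments, and counts summed over the whole gene cannot tell a full transcript from a partial one. The genotype name below stands for that label. Between 0.0211% and 1.03% of counts lay on 18S rRNA, with the highest shares in 5 libraries: camta6-5 control 1 and 3, camta6-5 NaCl 1 and 2, and wild-type control 1. Embryo reserve markers (4 of 4) rose with NaCl in both genotypes, from a summed 517 to 795 CPM to 9261 to 10943 CPM in wild type and from 598 to 1240 CPM to 9633 to 16000 CPM in camta6-5. Green seedling markers (3 of 3 tested of 4) fell in both, from 727 to 951 CPM to 271 to 361 CPM in wild type and from 821 to 952 CPM to 548 to 668 CPM in camta6-5. Of the endosperm markers, RGE1 was at 0, and EPR1 had no call, with means of 26.3, 32.7, 15 and 28.1 CPM in wild-type control, wild-type NaCl, camta6-5 control and camta6-5 NaCl. EXPA2, an expansin of the endosperm, had means of 30.8, 6.02, 17.3 and 23.7 CPM in the same order. It fell 5.12-fold in wild type (adjusted p = 0.00028), the change in camta6-5 was log2 0.45 ± 0.41, adjusted p = 0.372, and the interaction was log2 2.81 ± 0.61, adjusted p = 0.00213. Of the seed coat markers, BAN and TT10 were at or near 0, PER36 was at most 0.313 CPM in any group mean, and MUM4, with 18.2, 10.1, 21.7 and 13.8 CPM, fell in both genotypes. These are whole seedlings, so a change in the share of a tissue and a change of RNA per cell cannot be told apart; the part of the marker shifts in the results below was not tested.

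The NAC genes covered a wide range of levels. Of the 81, 7 had no count in any library, and 40 had enough counts to be tested. Per kilobase of exon, ANAC091 was the highest member in wild-type control and in camta6-5 control, at 67.5 and 56.7 CPM per kb. In wild-type NaCl ANAC040 was the highest, at 84.2 CPM per kb, against 13.7 in wild-type control. In camta6-5 NaCl the highest was ANAC078, at 48.7 CPM per kb, and ANAC040 stood at 21.9. The 14 highest members per kb over all libraries, from ANAC091 to ANAC014, held 88.3% of all NAC CPM in wild-type control and 92.1% in wild-type NaCl. In camta6-5 they held 87.6% and 91.0%. The summed CPM of the 81 genes was 725, 767 and 751 in wild-type control and 1348, 1436 and 1218 in wild-type NaCl. In camta6-5 it was 766, 733 and 664 in control and 793, 764 and 823 in NaCl. The wild-type NaCl libraries thus stood far above the other 9, and the camta6-5 NaCl libraries overlapped the highest controls.

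In wild type, NaCl raised more NAC genes than it lowered. A gene is called changed where its adjusted p (edgeR's quasi-likelihood test, Benjamini-Hochberg over all 18515 genes tested) is below 0.05. Of the 40 tested members, 21 rose and 13 fell, that is 52.5% and 32.5%, against 37.9% and 39.6% of all tested genes. The median log2 change of the 40 was 0.63, against -0.01 over all tested genes. At least 2-fold changes were called in 12 members upward and 12 downward, or 30% each way, against 13.5% and 21.2% of all tested genes. With 77.5% of all genes called in either direction, a call alone sets a NAC gene apart from few others, so the sizes and the levels below carry the description.

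In camta6-5, 13 members rose and 15 fell, or 32.5% and 37.5%, against 28.2% and 27.5% of all tested genes. The median log2 change was -0.06, against 0.01 over all. Of these, 5 rises and 7 falls reached 2-fold, or 12.5% and 17.5% of the tested members, against 6.03% and 8.53% of all tested genes. With the 5 libraries of the highest 18S rRNA share left out, which leaves 1 library in each camta6-5 group, fewer members were called, and fewer of all genes. The NaCl comparisons in the 2 genotypes share no library. In both, 12 members rose (ANAC001, 013, 016, 017, 032, 042, 050, 052, 059, 060, 078 and 089) and 12 fell (ANAC034, 057, 062, 068, 076, 083, 084, 088, 091, 094, 104 and 105). These 24 were 70.6% of the members called in wild type and 85.7% of those called in camta6-5, against 60.4% and 84.1% for all genes. Calls in opposite directions were made for 2 members, ANAC103 and ANAC044, which rose in wild type and fell in camta6-5. They were 5.88% of the wild-type calls, against 2.95% for all genes. A rise was called in wild type alone for 7 members (ANAC014, 019, 040, 053, 075, 092 and 102), of which 5 also differed between genotypes in the interaction test below, ANAC092 and ANAC102 being the other two.

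The genotype by NaCl interaction, the log2 response in camta6-5 minus that in wild type, tests whether the responses differed. It was past the threshold for 24 of the 40 members, 7 above 0 and 17 below 0, or 17.5% and 42.5%, against 27.1% and 21.0% of all genes. The median interaction was -0.55 for the NAC genes and 0.05 over all. Among the 34 members called in wild type, the response in camta6-5 was a median 0.40 of that in wild type on the log2 scale, and 0.42 among all genes called in wild type. For the 21 that rose the median was 0.34, against 0.48 of all genes that rose, and for the 13 that fell it was 0.54, against 0.38. With NaCl, 10 members were higher in camta6-5 than in wild type and 23 were lower, or 25% and 57.5%, against 33.8% and 28.5% of all genes; the median log2 difference was -0.48, against 0.05. Without NaCl, no member differed between the genotypes by edgeR, DESeq2 or limma voom, against 0.0864% of all genes called higher and 0.13% called lower by edgeR. Of the 40, 7 had an unadjusted p below 0.05 there, as did 2037 of all 18515 genes tested.

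Fewer calls that involve camta6-5 passed the threshold once those 5 libraries were left out, a fit that keeps 1 library in each camta6-5 group. Over all genes, too, each comparison that involves camta6-5 had fewer calls in that fit. Losses in that fit were thus not confined to the NAC genes, and their share among the members was not tested against that of all genes. Some members whose NaCl call in camta6-5 was lost had a log2 change at least as large as with all libraries. These were ANAC028 at -0.94, ANAC059 at 0.91, ANAC083 at -0.58 and ANAC094 at -1.44. The log2 change was smaller for ANAC057, at -1.74 against -1.87, ANAC050, at 0.41 against 0.66, and ANAC052, at 0.32 against 0.46. It was also smaller for ANAC084, at -0.83 against -1.43, ANAC034, at -0.39 against -0.72, and ANAC068, at -0.22 against -0.66. The same held for ANAC021, 076, 078 and 105.

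The interaction was kept in that fit for ANAC013, 016, 019, 032, 040, 044, 050, 052, 060, 078, 084, 089, 094, 103 and 104. For ANAC084 it went from 1.78 to 2.52. For ANAC104 it went from -2.98 to -6.51, but the one camta6-5 NaCl library left, camta6-5 NaCl 3, was at 0 CPM. That value of ANAC104 thus depends on the prior count and is no measure of size. Of the interactions lost, some were at least as large as before: ANAC062 at 0.51, ANAC034 at 0.97, ANAC075 at -0.99 and ANAC076 at 2.43. The others lost were smaller: ANAC014 at -0.50, ANAC053 at -0.28, ANAC083 at 0.71, ANAC021 at 1.07 and ANAC001 at -0.33. An interaction was gained for ANAC055, described below. Among the differences between genotypes with NaCl that were lost, ANAC088 went from 1.16 to 0.26 and ANAC042 from -1.40 to -0.45 on the log2 scale. The part of the 18S rRNA share in these values was not tested.

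**Figure D1:**
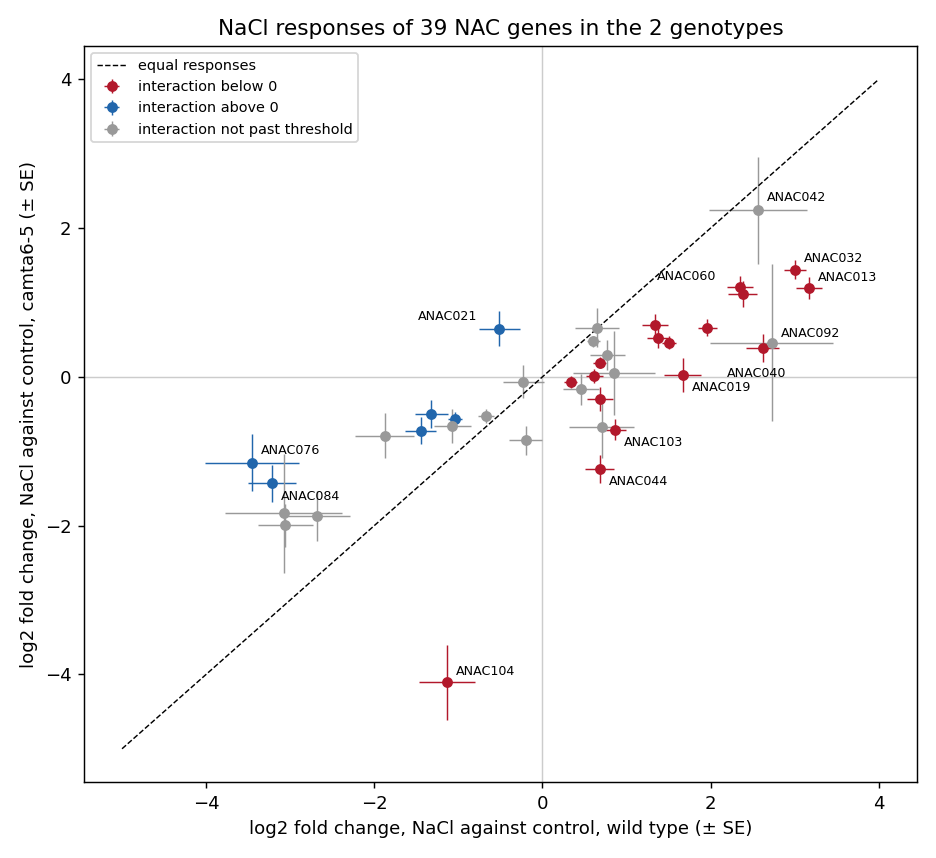
The log2 change with NaCl in wild type (horizontal) and in camta6-5 (vertical) for 39 tested NAC genes, as estimate ± SE from 3 libraries a group; ANAC094, at 0 counts in wild-type NaCl, is left out. Most genes that rose in wild type lie below the dashed line of equal responses, and ANAC103 and ANAC044 lie below 0 on the camta6-5 axis.

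The membrane-tethered members are the most abundant role group: 12 were tested, and together they held 556 to 579 CPM in wild-type control and 795 to 965 CPM in wild-type NaCl, against 494 to 581 CPM in camta6-5 control and 546 to 587 CPM in camta6-5 NaCl. In wild type 8 rose and 3 fell, in camta6-5 5 rose and 3 fell, and in the interaction 7 were below 0 and 1 above. Their median log2 changes were 0.61, 0.10 and -0.55. As a background, NaCl calls in wild type went upward for 37.9% and downward for 39.6% of the 18515 genes. In camta6-5 the shares were 28.2% and 27.5%, and for the interaction 21% were below 0 and 27.1% above. The same background holds for the calls of each list below. Whether a list departs from it was not tested.

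ANAC013 (AT1G32870, chr1:11911679-11913947) is anchored in the endoplasmic reticulum and carries signals from impaired mitochondria to the nucleus. It was at 13, 14.4 and 14.6 CPM in the wild-type controls and 128, 147 and 102 with NaCl, and at 16.9, 14.7 and 12.7 CPM in the camta6-5 controls and 31.9, 29.4 and 40.1 with NaCl. All wild-type NaCl libraries lay above every other library, and the camta6-5 NaCl libraries lay above both sets of controls. The rise was 8.98-fold in wild type (log2 3.17 ± 0.16, adjusted p = 1.67e-09) and 2.29-fold in camta6-5 (log2 1.19 ± 0.15, adjusted p = 2.78e-05), and the difference between them was log2 -1.97 ± 0.21, adjusted p = 1.68e-05. Its exons share 20 bases with a neighbour on the other strand, AT1G32880, which was at most 0.182 CPM in any group mean. ANAC017 (AT1G34190), which acts in the same mitochondrial pathway, was at 55.7, 48.8 and 49.6 CPM in the wild-type controls and 80.1, 82.7 and 72.1 with NaCl, and at 45.7, 47.3 and 44.1 CPM in the camta6-5 controls and 65.4, 60.3 and 65.6 with NaCl. It rose by a log2 change of 0.61 ± 0.08 in wild type and 0.48 ± 0.08 in camta6-5 (adjusted p = 6.39e-06 and 0.00017), and the interaction did not pass (log2 -0.13 ± 0.11, adjusted p = 0.342).

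ANAC040 (AT2G27300, chr2:11680417-11681955), also known as NTL8, is a membrane-bound factor known for salt control of germination through the gibberellin pathway. It was at 16, 20.0 and 11.9 CPM in the wild-type controls and 97.3, 119.5 and 77.5 with NaCl, and at 19.8, 21.1 and 17.6 CPM in the camta6-5 controls and 23.3, 30.4 and 22.8 with NaCl. The wild-type NaCl libraries stood apart from all others, while the camta6-5 NaCl libraries lay just above the camta6-5 controls. NaCl raised it 6.14-fold in wild type (log2 2.62 ± 0.19, adjusted p = 4.29e-08), and the change in camta6-5 did not pass the threshold (log2 0.39 ± 0.19, adjusted p = 0.0948), though it did with only the 2 camta6-5 groups in the fit (adjusted p = 0.0273). The interaction was log2 -2.23 ± 0.26, adjusted p = 3.39e-05, and with NaCl the level in camta6-5 was 3.84-fold lower than in wild type (adjusted p = 1.92e-06). The 300 bases upstream of its start in RefSeq (TAIR10.1) are shown because this member had the largest interaction below 0 of those above 5 CPM and because 4 matches to ACGTG, the core of the ABA response element, lie in them. Capitals mark the core on either strand, and CACGTG counts as 2 matches, 1 on each strand.
ANAC040 chr2:11681972-11682271, minus strand: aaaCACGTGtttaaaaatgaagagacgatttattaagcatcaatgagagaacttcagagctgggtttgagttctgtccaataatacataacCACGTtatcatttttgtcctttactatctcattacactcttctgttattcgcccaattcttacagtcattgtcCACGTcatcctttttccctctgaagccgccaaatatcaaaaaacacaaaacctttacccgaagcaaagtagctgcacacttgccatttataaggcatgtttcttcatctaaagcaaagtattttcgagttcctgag

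ANAC060 (AT3G44290), which dampens ABA responses to sugar in seedlings, was at 15.7, 18.4 and 11.1 CPM in the wild-type controls and 75.7, 81 and 75.2 with NaCl, and at 20.0, 20.8 and 15.7 CPM in the camta6-5 controls and 43.6, 39.7 and 47.1 with NaCl. The 4 groups kept apart in the order control, camta6-5 NaCl, wild-type NaCl, with the 2 control groups overlapping. It rose 5.11-fold in wild type (log2 2.35 ± 0.15, adjusted p = 1.59e-08) and 2.31-fold in camta6-5 (log2 1.21 ± 0.15, adjusted p = 2.65e-05), with an interaction of -1.15 ± 0.21 (adjusted p = 0.000731). ANAC089 (AT5G22290), known in fructose sensing and in cell death under endoplasmic reticulum stress, was at 50.9, 49.9 and 36.9 CPM in the wild-type controls and 124, 121 and 113 with NaCl, and at 68.3, 51.9 and 48.9 CPM in the camta6-5 controls and 87, 73.5 and 82.3 with NaCl. Its rise was 2.60-fold in wild type (adjusted p = 7.21e-07) and 1.44-fold in camta6-5 (adjusted p = 0.00523), and the interaction was log2 -0.86 ± 0.19, adjusted p = 0.00257.

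ANAC053 and ANAC078 switch on proteasome genes when proteasomes are impaired. ANAC053 (AT3G10500) had group means of 31.8, 40.1, 33.6 and 32.1 CPM in the order wild-type control, wild-type NaCl, camta6-5 control and camta6-5 NaCl, which is the order of all group means given below. It rose in wild type (log2 0.34 ± 0.08, adjusted p = 0.00136) and not detectably in camta6-5 (log2 -0.06 ± 0.08, adjusted p = 0.503), with an interaction of -0.40 ± 0.11 (adjusted p = 0.00905). ANAC078 (AT5G04410) had means of 93, 149, 96.6 and 110.4 CPM and rose in both, by 0.68 ± 0.08 and 0.19 ± 0.08 on the log2 scale (adjusted p = 2.12e-06 and 0.0447; the second was lost with RLE scaling, at 0.0964, and in 4 of 6 fits that left out 1 library, at 0.0608 to 0.164). Its interaction was log2 -0.49 ± 0.11, adjusted p = 0.00221. ANAC014 (AT1G33060), listed with the anchored factors, had means of 27.7, 42.6, 26.9 and 27.1 CPM; it rose in wild type (log2 0.62 ± 0.10, adjusted p = 6.28e-05), and the interaction was log2 -0.61 ± 0.14, adjusted p = 0.00317.

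The 3 tethered members that fell did so in both genotypes. ANAC062 (AT3G49530, chr3:18362443-18364913), also called NTL6, is known in cold and endoplasmic reticulum stress. It was at 109.9, 111 and 123 CPM in the wild-type controls and 55.7, 59 and 52.4 with NaCl, and at 104, 94.3 and 84.3 CPM in the camta6-5 controls and 66.4, 59.2 and 65.4 with NaCl. Both NaCl groups lay below both control groups. It fell 2.06-fold in wild type (log2 -1.04 ± 0.09, adjusted p = 1.29e-07) and 1.48-fold in camta6-5 (log2 -0.56 ± 0.09, adjusted p = 0.000123), and the fall was smaller in camta6-5 by 0.48 ± 0.12 on the log2 scale (adjusted p = 0.00557). ANAC091 (AT5G24590), known for its binding to the coat protein of a plant virus, was at 138, 148 and 169.9 CPM in the wild-type controls and 98.3, 104 and 84.9 with NaCl, and at 135, 132 and 116 CPM in the camta6-5 controls and 93.7, 84.2 and 88.1 with NaCl. Its falls were -0.67 ± 0.10 and -0.53 ± 0.10 on the log2 scale (adjusted p = 2.54e-05 and 0.000508), with no difference called between them (log2 0.14 ± 0.14, adjusted p = 0.415). ANAC068 (AT4G01540), which acts in cell division, had means of 4.98, 2.36, 3.72 and 2.35 CPM and fell in both (log2 -1.07 ± 0.22, adjusted p = 0.000621 in wild type and log2 -0.66 ± 0.23, adjusted p = 0.0246 in camta6-5, the latter lost in 4 of 6 fits that left out 1 library, at 0.0529 to 0.1). ANAC069 (AT4G01550), which lies 1072 bases from it on chromosome 4 and links salt with auxin in germinating seeds, had means of 1.24, 1.71, 1.92 and 1.71 CPM and no call in any comparison; in wild type its change was log2 0.46 ± 0.21, adjusted p = 0.0627, with a call by limma voom (0.0466) and without the 5 libraries richest in 18S rRNA (0.0208). Of their 50-base stretches 16.7% and 7.10% occur elsewhere in the genome, so reads could be split between them and close copies.

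Shown next are the 100 bases upstream of ANAC062 and of ANAC103, described further below, because both hold CGCG, the core of the box that CAMTA proteins are known to bind, within 100 bases of the start. The sequences are RefSeq TAIR10.1, and capitals mark CGCG, which reads the same on both strands.
ANAC062 chr3:18364960-18365059, minus strand: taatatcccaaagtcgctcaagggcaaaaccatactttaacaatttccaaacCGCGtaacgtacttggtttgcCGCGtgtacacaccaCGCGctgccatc
ANAC103 chr5:25635790-25635889, minus strand: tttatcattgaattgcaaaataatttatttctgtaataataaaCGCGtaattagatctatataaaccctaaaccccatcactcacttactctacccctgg
ANAC062 holds the core 3 times, starting 12, 27 and 48 bases upstream, and ANAC103 holds it once, at 57. These 2 members moved in opposite directions in wild type, so the match is a description only.

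**Figure D2:**
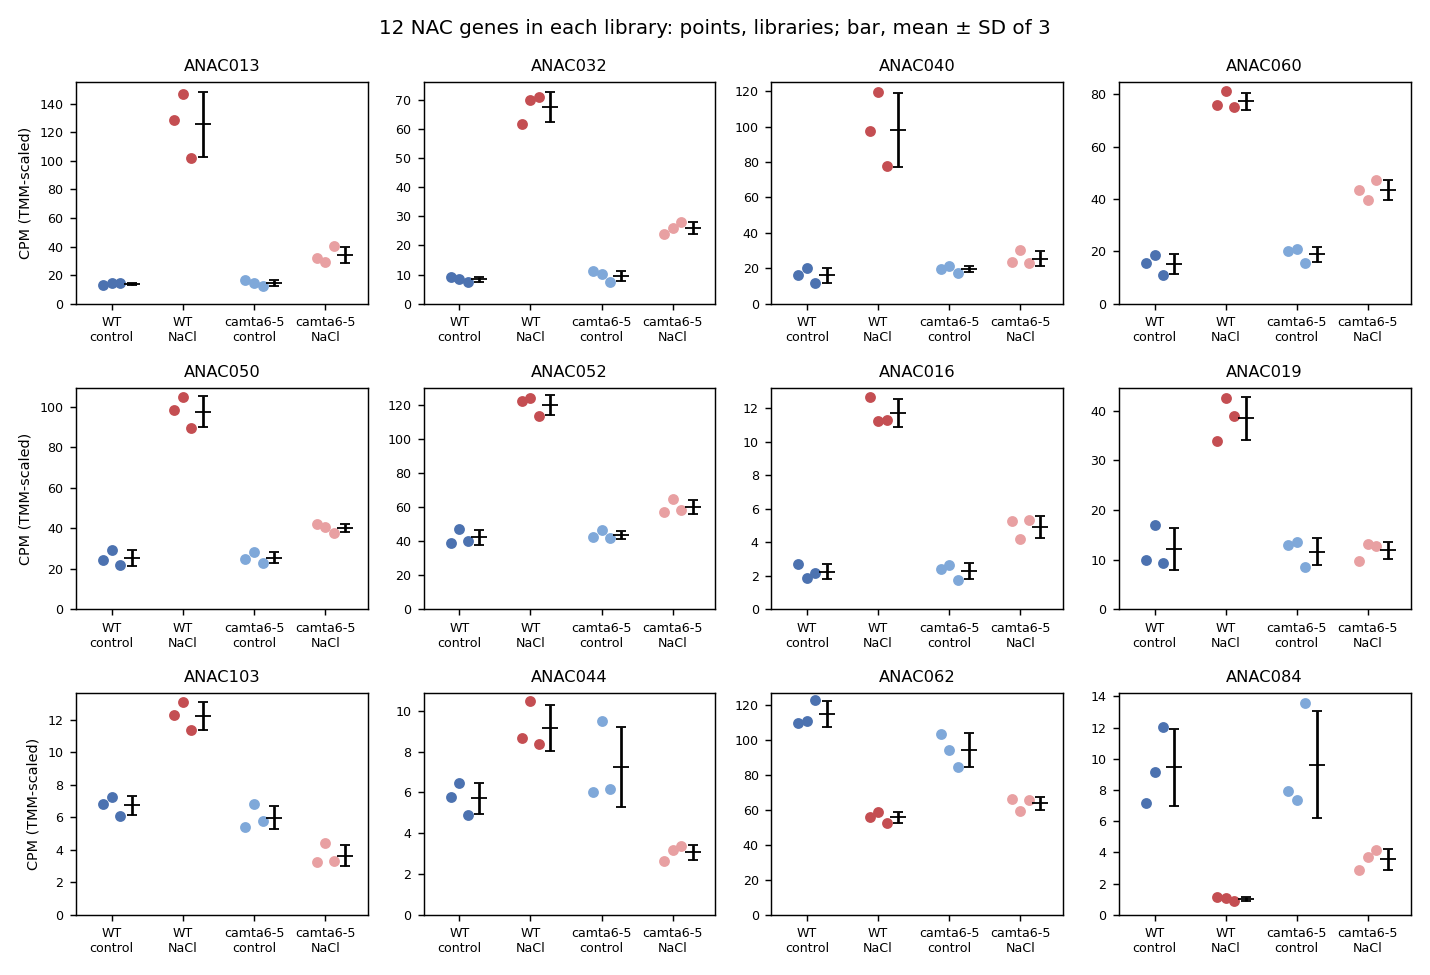
CPM of 12 NAC genes in each of the 12 libraries (points), with mean ± SD of 3 libraries beside each group; each panel has its own linear axis from 0. For ANAC013, ANAC032 and ANAC040 the wild-type NaCl libraries stand above all others, and for ANAC084 they stand below all others.

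Of the ATAF-type and related stress members, 9 genes were listed, 7 are members by the rule and 4 were tested. In wild type 3 rose and 1 fell, in camta6-5 1 rose, and 2 of the interactions were below 0. ANAC032 (AT1G77450, chr1:29099954-29101261) belongs to the ATAF subgroup and is known in stress and senescence. It was at 9.10, 8.61 and 7.44 CPM in the wild-type controls and 61.7, 69.9 and 71 with NaCl, and at 11.1, 10.1 and 7.48 CPM in the camta6-5 controls and 24, 25.8 and 28.1 with NaCl. It rose 8.04-fold in wild type (log2 3.01 ± 0.13, adjusted p = 8.3e-10) and 2.72-fold in camta6-5 (log2 1.44 ± 0.13, adjusted p = 1.97e-06), the second largest and the largest rises that the naming rule took. The interaction was log2 -1.57 ± 0.18, adjusted p = 2.69e-05. ANAC019 (AT1G52890, chr1:19697004-19698482) acts in drought, ABA and jasmonate responses. It was at 9.95, 17 and 9.41 CPM in the wild-type controls and 34, 42.6 and 39 with NaCl, and at 12.9, 13.6 and 8.44 CPM in the camta6-5 controls and 9.83, 13.1 and 12.7 with NaCl. NaCl libraries of camta6-5 lay among the controls, and those of wild type lay above all. The change was log2 1.67 ± 0.22, adjusted p = 1.01e-05 in wild type and log2 0.03 ± 0.22, adjusted p = 0.929 in camta6-5, with an interaction of -1.64 ± 0.31 (adjusted p = 0.000889).

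The upstream sequences of ANAC032 and ANAC019 are shown for comparison with that of ANAC040, since all 3 rose in wild type, differed between the genotypes and hold CACGTG. Capitals mark ACGTG on either strand.
ANAC032 chr1:29099669-29099838, plus strand: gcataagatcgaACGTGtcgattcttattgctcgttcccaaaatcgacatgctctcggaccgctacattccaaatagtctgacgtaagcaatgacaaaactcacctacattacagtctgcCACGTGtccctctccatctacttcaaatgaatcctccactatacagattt
ANAC019 chr1:19698483-19698622, minus strand: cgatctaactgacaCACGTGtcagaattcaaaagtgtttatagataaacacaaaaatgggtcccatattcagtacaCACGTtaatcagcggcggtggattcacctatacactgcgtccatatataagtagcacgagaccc
Counting both strands, the printed window of ANAC032 holds 3 matches and that of ANAC019 holds 3. Among the other tested members, CACGTG lies within 500 bases upstream of ANAC014, which rose in wild type. It also lies upstream of ANAC062 and ANAC055, which fell there, and of ANAC069, which had no call. The match is thus a description only.

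ANAC102 (AT5G63790), known for seed germination under low oxygen, was at 34.4, 41 and 39.5 CPM in the wild-type controls and 73.1, 68.9 and 54.3 with NaCl, and at 37.7, 36.5 and 27.6 CPM in the camta6-5 controls and 33.3, 32.6 and 59.3 with NaCl. The third camta6-5 NaCl library stood above the other two and within the range of wild-type NaCl. It rose in wild type (log2 0.77 ± 0.20, adjusted p = 0.00345), the change in camta6-5 was log2 0.29 ± 0.21, adjusted p = 0.239, and the interaction was log2 -0.48 ± 0.29, adjusted p = 0.188. Without that library the change in camta6-5 was -0.04, and the interaction was -0.81 and passed (adjusted p = 0.00552). Without the 5 libraries richest in 18S rRNA, which leaves it as the one camta6-5 NaCl library, the change in camta6-5 was 0.69 and passed (adjusted p = 0.03), and the genotype difference with NaCl went from -0.65 to -0.18 (adjusted p = 0.372). Of its exon bases 5.36% are shared with a gene on the other strand, SHA1, whose means were 6.08, 2.75, 6.47 and 4.26 CPM. ANAC055 (AT3G15500), a close relative of ANAC019, was low, with 51, 6, 21 and 6 counts over the 3 libraries of each group. It passed the filter through the 2 control groups alone, so its falls with NaCl followed in part from being tested. It fell in wild type (log2 -3.08 ± 0.70, adjusted p = 0.00119), and in camta6-5 the change was log2 -1.83 ± 0.80, adjusted p = 0.0674. The value in camta6-5 turned on single libraries: without camta6-5 NaCl 3 it was -3.67 and passed (adjusted p = 0.0107), and without the 5 libraries richest in 18S rRNA it was 0.75. It also passed without camta6-5 control 2 (0.0385) and with limma voom (0.0373). The interaction was log2 1.24 ± 1.21, adjusted p = 0.419, at -0.59 without camta6-5 NaCl 3 and 3.84 without the 5 libraries. So ANAC019 and ANAC055 were called in opposite directions in wild type.

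ANAC050 and ANAC052 are partners of the histone demethylase JMJ14. They lie on chromosome 3 on the same strand, 744 bases apart, with ANAC053 606 bases beyond. ANAC050 (AT3G10480) was at 24.3, 29.4 and 21.7 CPM in the wild-type controls and 98.5, 105 and 89.9 with NaCl, and at 25.1, 28.3 and 22.8 CPM in the camta6-5 controls and 42.2, 40.5 and 37.8 with NaCl. ANAC052 (AT3G10490) was at 39.1, 47.2 and 40.2 CPM in the wild-type controls and 122, 124 and 113 with NaCl, and at 42.7, 46.4 and 41.9 CPM in the camta6-5 controls and 57.3, 64.7 and 58.3 with NaCl. In both genes the wild-type NaCl libraries were the highest and the camta6-5 NaCl libraries came next, apart from all controls. The rises were 3.89-fold and 2.84-fold in wild type (log2 1.96 ± 0.11 and 1.51 ± 0.08, adjusted p = 5.73e-09 and 4.57e-09), against 1.58-fold and 1.38-fold in camta6-5 (adjusted p = 0.000278 and 0.000507). Their interactions were -1.30 ± 0.16 and -1.05 ± 0.12 (adjusted p = 3.95e-05 and 2.47e-05). Thus 3 adjacent genes rose in wild type with interactions below 0. A second adjacent pair, ANAC016 and ANAC017, 163 bases apart on chromosome 1, rose in both genotypes. ANAC016 rose more steeply than ANAC017, with values given below; the size difference between the 2 genes was not tested.

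ANAC103 and ANAC044 were the members called in opposite directions. ANAC103 (AT5G64060, chr5:25633536-25635781) acts in the unfolded protein response, downstream of the factor bZIP60. It was at 6.83, 7.24 and 6.10 CPM in the wild-type controls and 12.3, 13.1 and 11.3 with NaCl, and at 5.38, 6.78 and 5.75 CPM in the camta6-5 controls and 3.25, 4.39 and 3.28 with NaCl. The NaCl libraries lay above the controls in wild type and below them in camta6-5. It rose 1.82-fold in wild type (log2 0.86 ± 0.13, adjusted p = 3.7e-05), fell 1.64-fold in camta6-5 (log2 -0.71 ± 0.14, adjusted p = 0.000872) and had an interaction of -1.57 ± 0.19 (adjusted p = 3.95e-05). ANAC044 (AT3G01600) acts with ANAC085 in cell cycle arrest after DNA damage. It was at 5.76, 6.45 and 4.91 CPM in the wild-type controls and 8.67, 10.5 and 8.36 with NaCl, and at 6.03, 9.49 and 6.18 CPM in the camta6-5 controls and 2.64, 3.16 and 3.38 with NaCl. The second camta6-5 control library was higher than the other two, and again the NaCl libraries lay above the controls in wild type and below them in camta6-5. It rose 1.60-fold in wild type (log2 0.68 ± 0.18, adjusted p = 0.00296), fell 2.36-fold in camta6-5 (log2 -1.24 ± 0.19, adjusted p = 0.000116) and had an interaction of -1.92 ± 0.26 (adjusted p = 7.75e-05). ANAC085 was too low to test, at 5, 12, 11 and 1 counts over the 4 groups. With NaCl the wild-type level, scaled for library size, was 11.4 times that of camta6-5, with a 95% counting interval of 1.69 to 489.

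In the list of 10 unfolded protein response genes, 4 rose and 6 fell in wild type, 1 rose and 6 fell in camta6-5, and 5 interactions were above 0 and 2 below. The smallest adjusted p in wild type belonged to falls: SDF2, with means of 70.6, 22, 80.9 and 48.1 CPM, CNX1, a lectin chaperone, with 507, 141, 598 and 354 CPM, and CRT1b, another, with 263, 53.9, 297 and 113 CPM. Their log2 falls were -1.68, -1.85 and -2.29 in wild type and -0.75, -0.75 and -1.39 in camta6-5. BZIP60 and BIP3, which are among the 4 that rose in wild type, were named after their values were seen. The 6 that fell there did not move like ANAC103. BZIP60, the upstream factor of ANAC103, had means of 71.5, 123, 58.4 and 71.8 CPM. It rose by a log2 change of 0.79 ± 0.13 in wild type (adjusted p = 9.39e-05). In camta6-5 the change was log2 0.30 ± 0.13, adjusted p = 0.0688, and the interaction was -0.49 ± 0.19 (adjusted p = 0.0436). BIP3, the stress-inducible chaperone of the endoplasmic reticulum, was at 0.312, 0.0305 and 0.255 CPM in the wild-type controls and 3.17, 7.70 and 2.25 with NaCl, and at 0.0311, 0 and 0 CPM in the camta6-5 controls and 0.0290, 0 and 0.0335 with NaCl. It rose in wild type (log2 4.42 ± 0.58, adjusted p = 1.02e-05), with one library far above the other two. Over the NaCl libraries it had 449 counts in wild type and 2 in camta6-5. Scaled for library size, the ratio was 214, with a 95% counting interval of 58.8 to 1771. Over the control libraries BIP3 had 20 counts in wild type and 1 in camta6-5. Its interaction did not pass (log2 -3.70 ± 3.48, adjusted p = 0.404), so a difference between the NaCl responses of BIP3 was not shown.

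In the list of 7 DNA damage genes, 3 rose and 3 fell in wild type, 1 rose and 4 fell in camta6-5, and 1 interaction was above 0 and 3 below. Those with the smallest adjusted p in wild type were AT1G07500, with means of 6.14, 50.4, 6.92 and 20.5 CPM, ATBRCA1, which fell, with 5.68, 1.08, 7.46 and 3.36 CPM, and XRI, with 16.5, 30.7, 17.8 and 18 CPM. PARP2, a poly(ADP-ribose) polymerase named after its values were seen, was at 16.4, 21.3 and 14.7 CPM in the wild-type controls and 29.7, 30.5 and 34 with NaCl, and at 23.1, 19.2 and 19.3 CPM in the camta6-5 controls and 12.6, 14.4 and 12.6 with NaCl. Like ANAC044 it was called higher in wild type (log2 0.85 ± 0.13, adjusted p = 3.34e-05) and lower in camta6-5 (log2 -0.64 ± 0.13, adjusted p = 0.000994), with an interaction of -1.49 ± 0.18 (adjusted p = 3.89e-05).

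**Figure D3:**
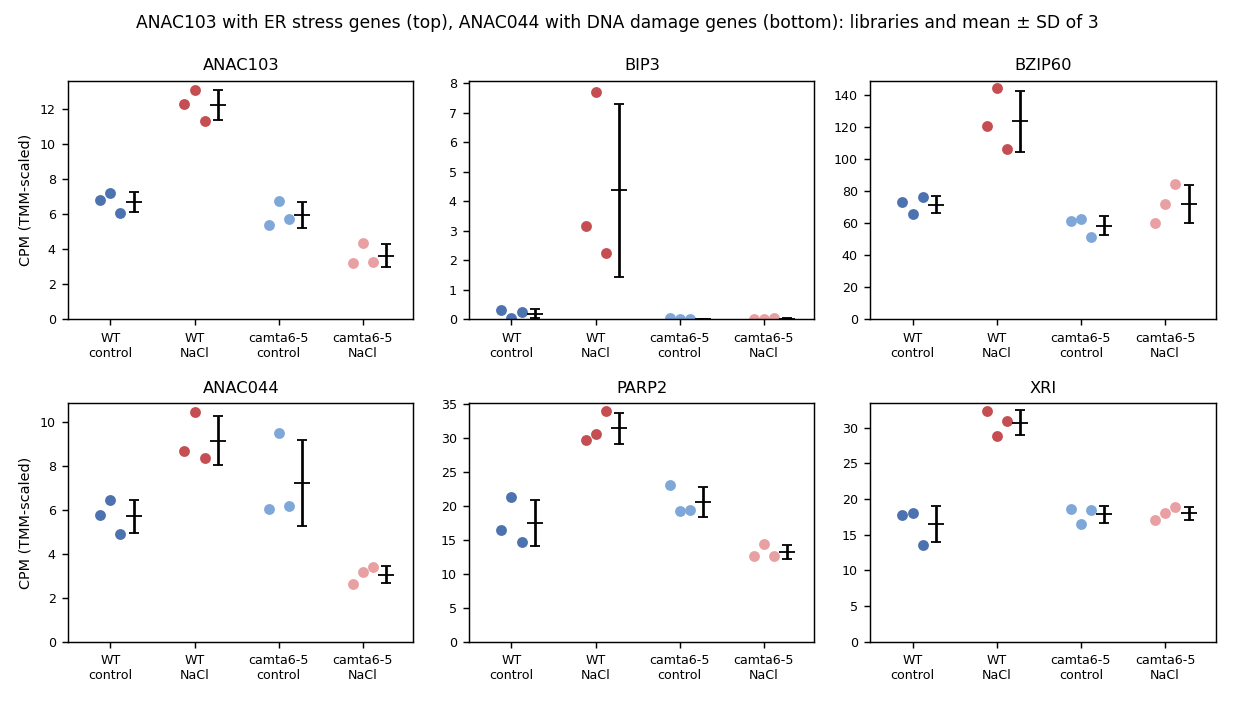
CPM in each library (points) with mean ± SD of 3 libraries for ANAC103, BIP3 and BZIP60 (top) and for ANAC044, PARP2 and XRI (bottom), on linear axes from 0. In all 6 genes the wild-type NaCl libraries lie above every camta6-5 NaCl library. The interaction of BIP3 did not pass the threshold. BIP3, BZIP60 and PARP2 were chosen after their values were seen. The genes that fell in wild type, 6 of 10 in the unfolded protein response list and 3 of 7 in the DNA damage list, are not drawn.

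The proteasome list, genes under ANAC053 and ANAC078, moved in 1 direction in wild type: 8 of 8 rose there, none rose and 2 fell in camta6-5, and 8 of 8 interactions were below 0. Of all tested genes, 37.9% rose in wild type, 27.5% fell in camta6-5 and 21% had an interaction below 0. The median log2 change of the 8 was 0.66 in wild type and -0.09 in camta6-5. RPT2a, with means of 222, 600.3, 236 and 254 CPM, rose by 1.44 ± 0.12 in wild type (adjusted p = 1.12e-07), and in camta6-5 the change was log2 0.10 ± 0.11, adjusted p = 0.463. RPN1A had means of 275, 448, 275 and 276 CPM, and PBA1 had 203, 382, 214 and 197 CPM. The mitochondrial list, genes under ANAC013 and ANAC017, held 6 genes, of which 4 rose and 1 fell in each genotype, with 1 interaction above 0 and 2 below. UGT74E2, a glucosyltransferase, was at 15.3, 21.9 and 13.7 CPM in the wild-type controls and 248, 332 and 240.4 with NaCl, and at 25, 24.3 and 13.6 CPM in the camta6-5 controls and 27.1, 34 and 64.6 with NaCl. It rose 16.1-fold in wild type (adjusted p = 1.25e-07) and 1.99-fold in camta6-5 (adjusted p = 0.0139), with an interaction of -3.02 ± 0.43 (adjusted p = 0.00013). AT2G21640 had means of 7.35, 19.1, 7.40 and 6.12 CPM and an interaction of -1.65 ± 0.20. CYP81D8, a cytochrome P450, had means of 1.95, 48, 1.14 and 29.3 CPM, with the third camta6-5 NaCl library at 61.7 CPM and the other two at 12.6 and 13.4. That library was also the highest of its group for UGT74E2, for ANAC013 and for AOX1A, the alternative oxidase, named after its values were seen, at 5.25, 12.7 and 37.1 CPM in camta6-5 with NaCl against 69.3, 90.3 and 48.3 CPM in wild type with NaCl. It is the camta6-5 NaCl library with the lowest share of 18S rRNA, and the part of that share in these values was not tested.

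Among the leaf senescence members, 6 were tested; in wild type 4 rose and 1 fell, and in camta6-5 3 rose and 1 fell. ANAC016 (AT1G34180), known in senescence and drought, was at 2.72, 1.86 and 2.14 CPM in the wild-type controls and 12.7, 11.2 and 11.3 with NaCl, and at 2.39, 2.67 and 1.73 CPM in the camta6-5 controls and 5.25, 4.19 and 5.36 with NaCl. It rose 5.21-fold in wild type (log2 2.38 ± 0.17, adjusted p = 3.82e-08) and 2.17-fold in camta6-5 (log2 1.12 ± 0.18, adjusted p = 0.000171), with an interaction of -1.26 ± 0.25 (adjusted p = 0.0011). ANAC042 (AT2G43000), or JUB1, which delays senescence, was at 0.142, 0.458 and 0.511 CPM in the wild-type controls and 2.72, 2.89 and 0.938 with NaCl, and at 0.218, 0.0978 and 0.199 CPM in the camta6-5 controls and 0.406, 0.484 and 1.64 with NaCl. The spread was wide: 1 wild-type NaCl library and 1 camta6-5 NaCl library departed from the rest of their groups. It rose in wild type (log2 2.56 ± 0.59, adjusted p = 0.00126) and in camta6-5 (log2 2.24 ± 0.72, adjusted p = 0.0179, lost without camta6-5 control 2 or camta6-5 NaCl 3, at 0.0624 to 0.123, and 4.01 with those 5 libraries of high 18S rRNA share left out). A gene on the other strand, AT2G42990, shares 7.78% of its exon bases and had means of 1.36, 0.0481, 1.02 and 0.0592 CPM. ANAC059 (AT3G29035), or ORS1, had means of 0.929, 1.46, 0.963 and 1.53 CPM and rose in both (log2 0.65 ± 0.26, adjusted p = 0.0379 and log2 0.66 ± 0.26, adjusted p = 0.0481), each lost in some fits that left out 1 library (at 0.0791 to 0.124 and at 0.0656 to 0.138). ANAC092 (AT5G39610), or ORE1, was tested on 5, 37, 4 and 6 counts over the groups. It passed the filter through wild-type NaCl alone, so its rise there (log2 2.73 ± 0.73, adjusted p = 0.00386; 3.38 without wild-type control 1) followed in part from being tested. ANAC087 (AT5G18270), which takes part in root cap cell death, had means of 0.623, 1.12, 0.448 and 0.473 CPM and no NaCl call.

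ANAC083 (AT5G13180), or VNI2, represses vessel formation and delays leaf senescence. It was at 5.96, 6.23 and 5.74 CPM in the wild-type controls and 2.28, 2.16 and 2.73 with NaCl, and at 8.24, 5.64 and 8.04 CPM in the camta6-5 controls and 5.28, 6.41 and 3.79 with NaCl. It fell 2.50-fold in wild type (log2 -1.32 ± 0.20, adjusted p = 3.5e-05) and 1.41-fold in camta6-5 (log2 -0.50 ± 0.18, adjusted p = 0.0348, lost in 4 of 6 fits that left out 1 library, at 0.0712 to 0.141). The interaction was log2 0.82 ± 0.27, adjusted p = 0.0227, lost in 4 of 12 such fits at 0.0512 to 0.0635. With NaCl it was 2.16-fold higher in camta6-5 than in wild type (adjusted p = 0.000302). In the list of senescence and chlorophyll breakdown genes, 6 of 9 were tested; 3 rose and 1 fell in each genotype, with 1 interaction above 0 and 3 below. PPH, a pheophytin hydrolase, had means of 20.6, 96.7, 20.0 and 58.4 CPM, NYC1, a chlorophyll b reductase, had 19.4, 49.3, 17.6 and 27.7 CPM, and NYE1, a chlorophyll breakdown factor, had 7.34, 51.4, 8.66 and 30.4 CPM. SAG12, the usual marker of senescing leaves, was at 0 counts in all 12 libraries. Of the 6 genes in a list of developmental cell death, 1 was tested. It fell in both genotypes, by log2 -3.75 in wild type and -0.88 in camta6-5, with an interaction above 0 (log2 2.87).

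Secondary wall and vessel members were low. Of the 14 listed, 7 are members by the rule and 4 were tested; 1 rose and 3 fell in wild type, and 3 fell in camta6-5. ANAC104 (AT5G64530), or XND1, which restrains xylem differentiation, was at 1.19, 1.01 and 1.34 CPM in the wild-type controls and 0.612, 0.601 and 0.398 with NaCl, and at 1.06, 0.750 and 0.964 CPM in the camta6-5 controls and 0.116, 0.0285 and 0 with NaCl. It had 56 counts in wild-type NaCl and 5 in camta6-5 NaCl, and among the 12 members called lower in both genotypes it was the one whose fall was larger in camta6-5. The log2 change was -1.13 ± 0.33 in wild type and -4.11 ± 0.51 in camta6-5 (adjusted p = 0.0072 and 2.47e-05), and the interaction was log2 -2.98 ± 0.65, adjusted p = 0.0022. These sizes rest on the few counts with NaCl in camta6-5: without camta6-5 NaCl 1 the change there was -5.60 and the interaction -4.47. The vessel factors ANAC105 (AT5G66300), or VND3, and ANAC076 (AT4G36160), or VND2, fell in both genotypes. ANAC105 had means of 0.715, 0.193, 0.853 and 0.488 CPM and log2 falls of -1.88 ± 0.35 and -0.79 ± 0.31 (adjusted p = 0.000263 and 0.0412, the second lost in 4 of 6 fits, at 0.0674 to 0.209). ANAC076 had 35, 3, 44 and 21 counts over the groups, so that the wild-type control level was 12.3 times that with NaCl (95% counting interval 3.87 to 62.3). It passed the filter through the 2 control groups alone, so its falls with NaCl followed in part from being tested. Its fall in camta6-5 was log2 -1.15 ± 0.38, adjusted p = 0.0202 (lost in 3 of 6 fits, at 0.0515 to 0.0740). The interaction (log2 2.30 ± 0.72, adjusted p = 0.0178) was lost without wild-type NaCl 2, at 0.0594, and was 3.13 without wild-type NaCl 3. ANAC075 (AT4G29230), a vascular factor, had means of 1.56, 2.52, 1.82 and 1.48 CPM; it rose in wild type (log2 0.69 ± 0.16, adjusted p = 0.00112), the change in camta6-5 was log2 -0.29 ± 0.16, adjusted p = 0.138, and the interaction was log2 -0.98 ± 0.22, adjusted p = 0.00295. Of the 13 secondary wall genes listed beside them, 4 were tested, and 1 fell in wild type and 1 rose in camta6-5. LAC17, a laccase of lignin formation, had means of 0.412, 0.238, 0.507 and 0.726 CPM, and MYB63 had no count in any library.

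ANAC034 (AT2G02450), or LOV1, which controls flowering time and cold response, was at 5.44, 5.01 and 4.79 CPM in the wild-type controls and 2.31, 1.44 and 1.82 with NaCl, and at 4.6, 4.56 and 4.75 CPM in the camta6-5 controls and 2.81, 2.16 and 3.48 with NaCl. It fell 2.73-fold in wild type (log2 -1.45 ± 0.19, adjusted p = 9.18e-06) and 1.65-fold in camta6-5 (log2 -0.72 ± 0.18, adjusted p = 0.00456). Its interaction, log2 0.73 ± 0.26, adjusted p = 0.0347, was lost in 9 of 12 fits that left out 1 library, at 0.0525 to 0.0940, and 24.7% of its exon bases lie opposite another gene. ANAC021 (AT1G56010), or NAC1, which acts in auxin signals for lateral roots, was at 0.936, 1.16 and 0.926 CPM in the wild-type controls and 0.917, 0.481 and 0.711 with NaCl, and at 0.715, 0.848 and 0.764 CPM in the camta6-5 controls and 1.25, 1.17 and 1.24 with NaCl. It was the member called higher in camta6-5 alone (log2 0.65 ± 0.24, adjusted p = 0.0343, lost in 5 of 6 fits, at 0.0567 to 0.101); in wild type the change was log2 -0.51 ± 0.24, adjusted p = 0.0695 and the interaction was log2 1.16 ± 0.34, adjusted p = 0.0131. A non-coding gene on the other strand shares 31.0% of its exon bases, and the kit does not mark strand.

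Other members are given without a role. ANAC084 (AT5G14000, chr5:4518008-4519300) was at 7.17, 9.13 and 12.1 CPM in the wild-type controls and 1.14, 1.05 and 0.853 with NaCl, and at 7.93, 7.37 and 13.6 CPM in the camta6-5 controls and 2.84, 3.70 and 4.15 with NaCl. The wild-type NaCl libraries lay below all others, and those of camta6-5 lay between them and the controls. It had the largest fall the naming rule took in each genotype, 9.27-fold in wild type (log2 -3.21 ± 0.28, adjusted p = 2.55e-07) and 2.70-fold in camta6-5 (log2 -1.43 ± 0.25, adjusted p = 0.000342), with an interaction of 1.78 ± 0.38 (adjusted p = 0.00195). ANAC001 (AT1G01010) was at 2.78, 3.70 and 2.55 CPM in the wild-type controls and 7.06, 7.91 and 7.87 with NaCl, and at 3.61, 2.58 and 3.59 CPM in the camta6-5 controls and 5.37, 5.33 and 5.13 with NaCl. It rose 2.53-fold in wild type and 1.62-fold in camta6-5 (adjusted p = 3.43e-06 and 0.00232); the interaction of -0.64 ± 0.22 (adjusted p = 0.0285) was lost in 6 of 12 fits that left out 1 library, at 0.0506 to 0.0597. ANAC094 (AT5G39820) was at 1.28, 1.68 and 0.926 CPM in the wild-type controls, had no count in any wild-type library with NaCl, and was at 1.21, 1.27 and 1.73 CPM in the camta6-5 controls and 0.841, 0.769 and 0.469 with NaCl. Against a limit of 3 counts for the empty group, it was at least 45.2-fold lower with NaCl in wild type (adjusted p = 6.9e-07). In camta6-5 it fell by a log2 change of -1.0 ± 0.31 (adjusted p = 0.0161, lost without camta6-5 control 3 or camta6-5 NaCl 3, at 0.0615 to 0.0625). With NaCl it was at least 24.5-fold lower in wild type than in camta6-5, and the interaction passed (adjusted p = 9.54e-05).

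ANAC088 (AT5G18300) had means of 1.38, 0.163, 1.48 and 0.364 CPM, and ANAC057 (AT3G17730) had 1.25, 0.188, 1.88 and 0.510 CPM. Both fell in both genotypes, ANAC088 by -3.06 ± 0.32 and -1.99 ± 0.29 and ANAC057 by -2.68 ± 0.39 and -1.87 ± 0.33 on the log2 scale. ANAC088 overlaps a gene on the other strand, SIP1;2, with 0 shared exon bases. SIP1;2 fell with NaCl as well, with means of 11.2, 1.36, 11.3 and 2.05 CPM. The kit does not mark strand, and the part of SIP1;2 reads in the ANAC088 values was not tested. ANAC028 (AT1G65910), with means of 1.32, 1.15, 1.96 and 1.08 CPM, fell in camta6-5 alone (log2 -0.85 ± 0.20, adjusted p = 0.00267), and the interaction did not pass (log2 -0.65 ± 0.28, adjusted p = 0.0719). ANAC020 (AT1G54330), with means of 0.884, 0.755, 1.43 and 1.36 CPM, had no NaCl call in either genotype and was higher in camta6-5 than in wild type with NaCl (log2 0.85 ± 0.23, adjusted p = 0.00627; 0.351 without those 5 libraries). ANAC041 (AT2G33480), with means of 0.222, 0.364, 0.287 and 0.180 CPM, had no NaCl call, and with NaCl it was lower in camta6-5 (log2 -1.0 ± 0.40, adjusted p = 0.0442), which was lost in 4 of 6 fits at 0.0755 to 0.136. It passed the filter through 4 libraries, of wild-type NaCl and camta6-5 control alone. Its lower level in camta6-5 with NaCl thus followed in part from being tested.

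**Figure D4:**
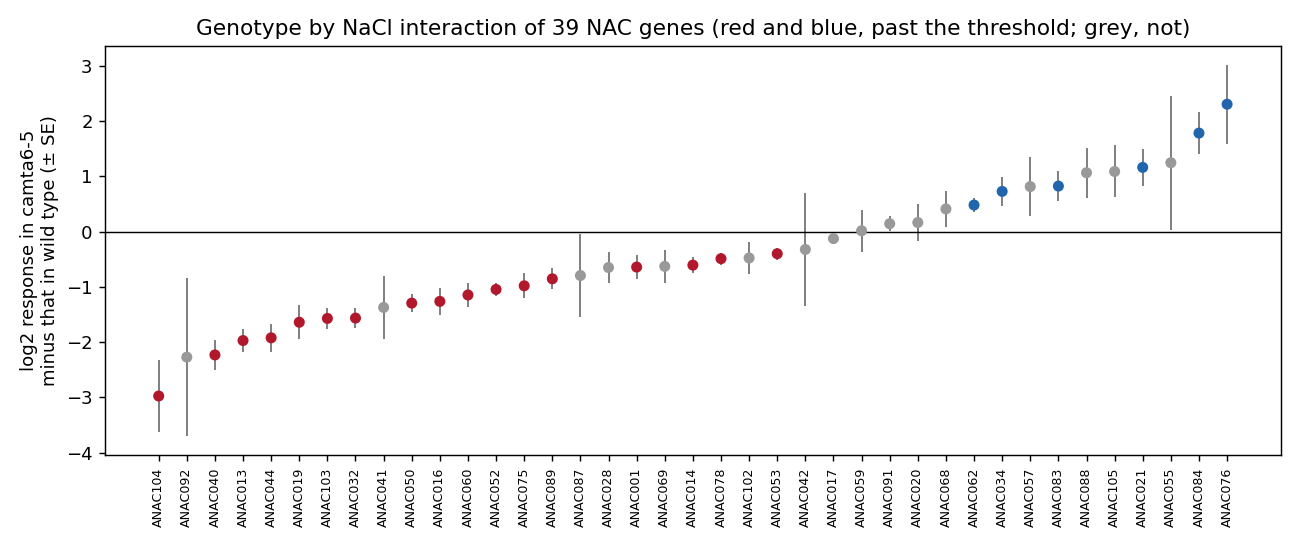
Interaction of genotype and NaCl for 39 tested NAC genes, as the log2 response in camta6-5 minus that in wild type, estimate ± SE from 3 libraries a group, in rising order; ANAC094 is left out. Of the genes past the threshold, 17 lie below 0, from ANAC104 to ANAC053, and the 6 drawn above 0 run from ANAC062 to ANAC076.

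The 41 members below the filter had at most 66 counts over all 12 libraries, 9 of them 1 to 3 counts. Where a group had no count, the level it allows is at most 0.0287 to 0.0323 CPM. ANAC047, a stress-related member, had 27 counts in wild-type control and 3 in wild-type NaCl, and 6 and 2 counts in camta6-5. Scaled for library size, the ratio in wild type was 9.46, with a 95% counting interval of 2.91 to 48.7. ANAC070, a root cap factor, went from 22 counts to 0 with NaCl in wild type and from 13 to 6 in camta6-5. ANAC056, a factor of seed development, had 3, 14, 2 and 11 counts over the groups, the NaCl groups being the higher in each genotype. ANAC012, a master factor of fibre secondary walls, had no count. Intervals and limits take in counting error alone: without molecular identifiers, reads are not independent molecules. Of the 2 enzymes, GlcNAc1pUT1 (AT1G31070) had means of 9.07, 2.85, 10.3 and 4.01 CPM and fell in both genotypes (log2 -1.67 ± 0.26 and -1.36 ± 0.25), while GlcNAc1pUT2 (AT2G35020), at 10.6, 10.4, 11.5 and 13.3 CPM, rose in camta6-5 alone (log2 0.21 ± 0.08, adjusted p = 0.0429).

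In the 500 bases upstream of their starts, 39 of the 81 NAC genes held ACGTG on either strand, or 48.1%, against 35.7% of 26711 promoters of the same length. Of the members that rose in wild type 9 of 21 held it, of those that fell 7 of 13, and of those with no call 5 of 6. By interaction, 9 of 17 members below 0, 5 of 7 above 0 and 7 of 16 with no call held it. CGCG was in 15 of 81, or 18.5%, against 18% of all promoters. It was in 2 of 21 members that rose in wild type, 6 of 13 that fell and 1 of 6 with no call. By interaction, it was in 1 of 17 members below 0, 3 of 7 above 0 and 5 of 16 with no call. The shares among all genes of each call were not taken, and a link of motif and call was not tested. The mitochondrial dysfunction motif, which ANAC013 and ANAC017 are known to bind, was in 6 of 81, or 7.41%, against 3.38%. TCATCG, an element of the unfolded protein response, was in 7 of 81, or 8.64%, against 14.1%. By interaction, TCATCG was in 1 of 17 members below 0, 3 of 7 above 0 and 0 of 16 with no call. The 2 strands of ACGTG overlap in CACGTG, and TCATCG can share letters with CGCG. These are counts of letters in a window and not of bound sites.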

How the data were processed

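Total RNA of 12 libraries was prepared with an unstranded kit (Illumina TruSeq v2), per the labels. The authors deposited 1 table of raw read counts per gene, without normalization; per the submitters' processing notes, the build was TAIR10 and the tools were HTSeq 0.6.1, Bowtie2 2.2.6, TopHat2 2.1.0, DESeq2 1.10.0 and cutadapt 1.9, their settings not given in the sources used here. Reads of overlapping or near-identical genes are therefore uncertain. The deposited counts were fitted in R 4.3.3 with edgeR 4.0.16: filterByExpr (minimum count 10, minimum total 15), TMM, 1 mean per group over all 12 libraries with 8 residual degrees of freedom, and the two-sided quasi-likelihood test. SE is the absolute log2 change divided by the square root of F. The fit was tested on simulated data. Alternatives used DESeq2 1.42.0 and limma 3.58.1. Coordinates of genes are those of the deposited table (TAIR10); promoters, exon lengths and overlaps come from RefSeq TAIR10.1, in which all 83 rows were found. Where the table gives 1 name to several genes, the ANAC number replaces it. The members, role lists, pathway lists and tests were chosen with earlier results of these data known, so they support nothing by themselves. Full values are given for the 5 largest rises and 5 largest falls of each comparison among members past the threshold with at least 5 CPM in the higher group and groups that do not overlap, for members of the role lists, and for up to 3 genes of each pathway list by adjusted p in wild type. A gene of the DNA damage list is not reported here and is left out of its counts.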

Additional observations from a re-analysis of the deposited data

Results flagged for a closer look

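The NaCl response differed between the genotypes, by the interaction term of edgeR's quasi-likelihood test, for 24 NAC genes, against 48.1% of all genes tested. Values are the log2 response in camta6-5 minus that in wild type. Below 0 were ANAC104 (-2.98), ANAC040 (-2.23), ANAC013 (-1.97), ANAC044 (-1.92), ANAC019 (-1.64), ANAC103 (-1.57), ANAC032 (-1.57), ANAC050 (-1.30), ANAC016 (-1.26), ANAC060 (-1.15), ANAC052 (-1.05), ANAC075 (-0.98), ANAC089 (-0.86), ANAC001 (-0.64), ANAC014 (-0.61), ANAC078 (-0.49) and ANAC053 (-0.40). Above 0 were ANAC062 (0.48), ANAC034 (0.73), ANAC083 (0.82), ANAC021 (1.16), ANAC084 (1.78), ANAC076 (2.30) and ANAC094 (7.42, a fitted value against 0 counts in wild-type NaCl that depends on the prior count and is no bound). With 3 libraries a group, no group was tested for a library far from the others.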

How the results depend on the processing

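No value called in the full fit or in the alternative changed sign under any alternative run: RLE or no scaling factors, no filter, a filter of 1 CPM in 3 libraries, DESeq2, limma voom, only the 2 groups compared in the fit, the replicate block, each library left out, the 5 libraries richest in 18S rRNA left out, and rRNA and organelle genes left out. Values not called did so 96 times, over 26 members, 45 of these in genotype without NaCl; the largest in size was ANAC055 in camta6-5 (-1.83 in the full fit and 0.75 without the 5 libraries). Leaving out the 5 libraries leaves 1 library in each camta6-5 group, assumed to vary like the other groups. That fit called fewer members higher and fewer lower for NaCl in camta6-5 and for genotype with NaCl. It also called fewer interactions above 0 and fewer below 0. Over all genes, calls of each of these kinds were fewer too. With each library left out in turn, the members higher and lower numbered 20 to 22 and 13 to 15 for NaCl in wild type, 9 to 11 and 10 to 16 for NaCl in camta6-5, 6 to 10 and 19 to 22 for genotype with NaCl, and 5 to 7 and 16 to 18 for the interaction, with 0 throughout for genotype without NaCl; the 6 came without wild-type NaCl 2. Calls kept in every such fit were 33 of 34, 19 of 28, 25 of 33 and 20 of 24. Wild-type NaCl 2 ended the genotype call with NaCl of ANAC021 (adjusted p = 0.0637), ANAC034, ANAC041, ANAC042, ANAC057, ANAC087 and ANAC088 (0.0507 to 0.192 over the libraries that ended a call), and ANAC102 lost it without camta6-5 NaCl 1 or 2 (0.0623 to 0.0636). By tool or filter, calls lost in camta6-5 with NaCl included ANAC105 with DESeq2 (0.0853), limma voom (0.0537), no filter (0.0628) and no scaling (0.0565), ANAC083 with no scaling (0.0595), ANAC042 with limma voom (0.0839) and, with DESeq2, ANAC021 (0.0958), ANAC059 (0.0783), ANAC076 (0.0682) and ANAC078 (0.0954); the interaction of ANAC076 was lost with DESeq2 (0.0658). The cause was not tested.

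Same-numbered libraries correlated at -0.22 to 0.27 in their deviations from the group means. In 4 comparisons not every pair was above 0.1, and the numbers were not taken as pairs there. Between the 2 control groups all 3 pairs were above 0.1, at 0.18 to 0.27, against -0.28 to 0.10 for different numbers. For genotype without NaCl edgeR's test with the block called 0 members (11 with an unadjusted p below 0.05), with 43 of all genes called in the fit on all libraries. A fit of the control groups alone with the block, chosen after seeing the data, tested 37 members and called 0 (10 unadjusted), with 25 of all genes. With the replicate block the members higher and lower were 22 and 13 for NaCl in wild type, 14 and 13 for NaCl in camta6-5, 10 and 21 for genotype with NaCl, and 7 and 17 for the interaction. The block added ANAC069 in wild type (adjusted p = 0.0467) and ANAC040 in camta6-5 (0.00588), and took away ANAC083 (0.0507) and ANAC105 (0.0567) in camta6-5 and ANAC087 (0.0656) and ANAC041 (0.0617) for genotype with NaCl. The depth limits the members below 0.303 CPM, the level the filter asks of 3 libraries.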
